A study of Danio rerio with 10 samples.

Results

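Kinesins are motor proteins that use ATP to walk along microtubules. Their RNA levels were compared between zebrafish larvae homozygous for the can4 mutation of top2a (can4-/-) and their wild-type siblings (WT). The members are the genes in the count table whose Ensembl name begins with kif followed by a digit or the letter c, which gave 45 of 25911 genes. Of these, 44 encode kinesins, and 1 (kif1bp) encodes a protein that binds kinesins and is not a motor itself. All 45 passed the filter on low counts that left 23039 genes for testing. The question was how the kinesins of cell division (kif11, kif18a, kif20a, kif20ba, kif20bb and kif23) compared with those that carry cargo in nerve cells and elsewhere (the kif1, kif3 and kif5 genes).

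Both groups were whole larvae of the AB strain at 3 days post fertilization (dpf), from crosses of heterozygous carriers, and no treatment is named for either. The can4-/- group had 5 pools and the WT group had 5 pools, with RNA from 9 individually genotyped larvae in each pool. can4 is 1 mutant allele, homozygotes carry it in every cell, and transcripts that the heterozygous mother placed in the egg may persist for a time. A whole larva holds every tissue, so fewer cells of a type and less RNA per cell cannot be told apart.

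Dividing cells use one set of kinesins to push spindle poles apart, to align and move chromosomes, and to bundle the midzone microtubules along which the daughter cells separate. Nerve cells, which no longer divide, use another set to carry synaptic vesicle precursors, mitochondria and other cargo along the axon. A further set builds cilia or works inside them. Because teleosts duplicated their genome, zebrafish often have an a copy and a b copy of 1 mammalian kinesin gene.

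Counts assigned to genes ranged from 30098991 to 38106622 per can4-/- pool and from 29281449 to 45544046 per WT pool. The targeted gene, top2a, had 675, 1358, 656, 635 and 688 normalized counts in the can4-/- pools, against 9082, 8498, 8646, 8532 and 8498 in the WT pools. A normalized count is the count divided by the effective library size of its pool, times the mean of those sizes, so it compares pools and not genes of different length. top2a was lower in all 5 can4-/- pools, with a log2 fold change of -3.43 (SE 0.19; two-sided exact permutation test, p = 0.00794, the smallest that 5 pools against 5 can give). can4-/- replicate 2 stood above the other can4-/- pools, and without it the log2 fold change was -3.70. Over all genes, 73.2% passed the test at an adjusted p under 0.05, with 36.9% lower and 36.3% higher in can4-/-, and 60.8% had no overlap between the pools of the genotypes. Under scaling by library totals in place of TMM factors, which shifts the median log2 fold change of all genes by -0.17, 47.7% of genes were lower and 25.7% higher.

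Most kinesin genes had less RNA in can4-/- larvae. Of the 45 members, 35 were lower, 8 were higher and 2 (kif7 and kif3b) did not pass the test. Read against the 73.2% of all genes called, the share of members called was larger, and the calls were mostly in 1 direction. The shares over all genes take in genes with few counts, and the members were not compared with genes of like count. The median log2 fold change of the members was -0.58, beside 0.0027 over all genes tested, whose lower and upper quartiles were -0.48 and 0.41. For 39 of the 45 members no can4-/- pool reached into the range of the WT pools, which held for 60.8% of all genes. 4 members (kif25, kif11, kifc1 and kif3ca) were lower by at least 2-fold, a change that 11.9% of all genes showed. A further 2 (kif6 and kif17) were higher by at least 2-fold. The share of all genes higher by that much was not computed, so nothing is read from this count. kif17 fell just under 2-fold with library totals (log2 fold change 0.996). With library totals, 36 members were lower and 5 higher, where 47.7% of all genes were lower and 25.7% higher. Leaving out can4-/- replicate 2 together with WT replicate 1, the 2 pools with the highest top2a of their genotype, gave 34 lower and 7 higher.

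**Figure D1:**
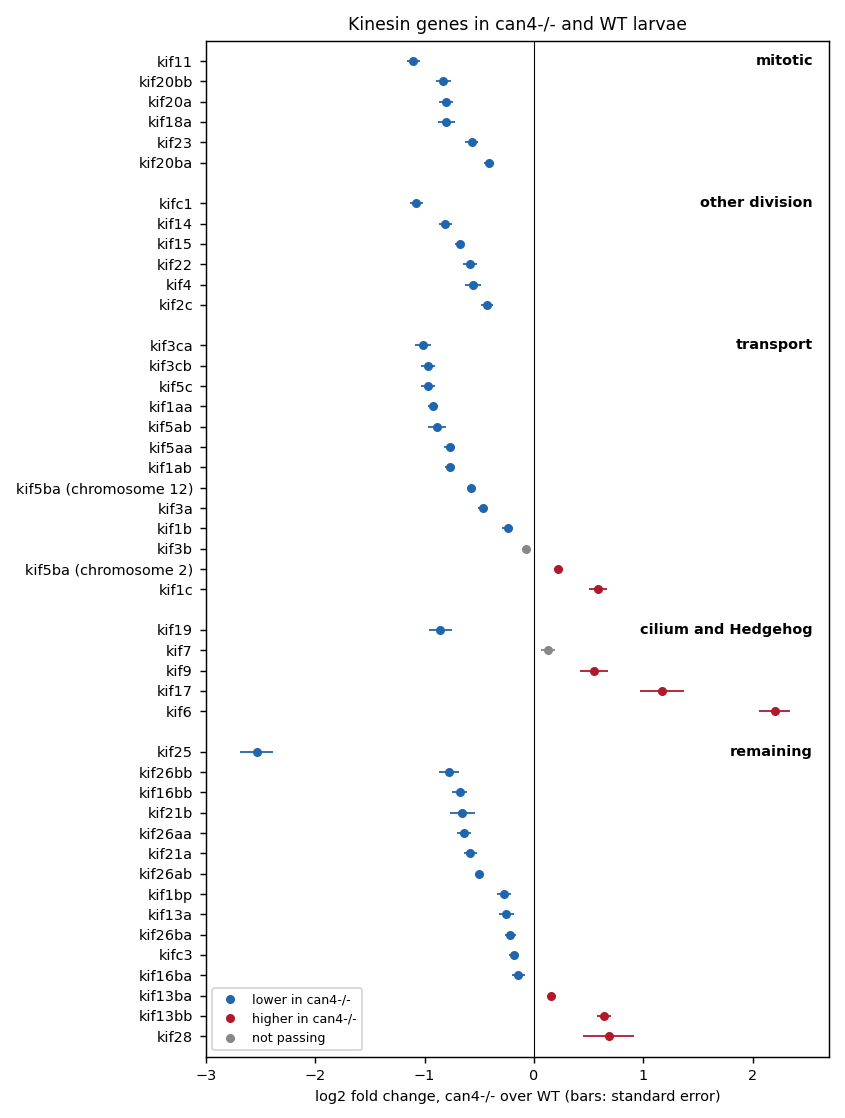
Log2 fold change (can4-/- over WT, horizontal axis) of the 45 kinesin genes, grouped by role, with bars for the standard error, from 5 pools per genotype. All 12 division members lie left of 0, transport members run from -1.01 to 0.58, and kif25 and kif6 lie farthest from 0 on either side.

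The mitotic kinesins were lower in can4-/- larvae without exception. Beside 36.9% of all genes lower and 60.8% without overlap, all 6 members passed the test and none overlapped between genotypes. Their median log2 fold change was -0.80, with a range of -1.10 to -0.41. Their summed normalized count was 6239 to 7247 in can4-/- pools, against 11197 to 12374 in WT pools, so that the can4-/- mean was 57.1% of the WT mean. The name kif18b, which was also on the list, has no row in the count table.

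kif11, on chromosome 17 (ENSDARG00000010948, 19481049 to 19497006, GRCz11), encodes the motor that slides the antiparallel microtubules of the spindle and keeps its poles apart. It had 2059.8, 2417, 1939, 2030.5 and 2064 normalized counts in can4-/- replicates 1 to 5, against 4772, 4432, 4670.3, 4365 and 4336 in WT replicates 1 to 5. The highest can4-/- pool stood far below the lowest WT pool. The can4-/- mean was 46.6% of WT, with a log2 fold change of -1.10 (SE 0.057; edgeR's quasi-likelihood test with Benjamini-Hochberg adjustment over all genes, adjusted p = 9.78e-10). Among the 6 mitotic members this was the largest decrease, and it was -1.16 without can4-/- replicate 2.

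kif20a, on chromosome 21 (ENSDARG00000044491), encodes the motor that in human cells brings the Aurora B complex to the spindle midzone. Its normalized counts were 1067, 991, 839, 893 and 963 in can4-/- pools, against 1814, 1609, 1683, 1648 and 1548 in WT pools. The genotypes did not overlap, and the fold change was -0.81 on the log2 scale (SE 0.064, adjusted p = 6.09e-08). kif18a, on chromosome 7, is known from human cells as the motor that damps the swaying of chromosomes before they separate. It had 314, 425, 349, 343 and 315 normalized counts in can4-/- pools, against 602, 629, 596, 639 and 584 in WT pools. can4-/- replicate 2 was the highest mutant pool and still lay below every WT pool (log2 fold change -0.80, SE 0.078, adjusted p = 4.75e-07).

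kif23, on chromosome 18, encodes the motor subunit of centralspindlin, the complex that bundles midzone microtubules and is needed to divide the cytoplasm. Its normalized counts were 1305, 1304, 1112, 1178 and 1306 in can4-/- pools, against 1995, 1961, 1708, 1695 and 1849 in WT pools. The can4-/- mean was 67.4% of WT (log2 fold change -0.57, SE 0.062, adjusted p = 1.55e-06). racgap1, whose protein is the other subunit of centralspindlin, averaged 994 ± 69 normalized counts in can4-/- and 1689.9 ± 53.8 in WT (SD, n = 5 each), a log2 fold change of -0.76 with an adjusted p of 8.64e-09 from edgeR. The RNA of both subunits of that complex was thus lower, and protein was not measured. racgap1 was picked from its list after its values were seen.

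The copies of KIF20B, a motor with a part in the final cut between daughter cells in human cells, fell by different amounts. kif20bb on chromosome 12 had 761, 935, 834, 782 and 783 normalized counts in can4-/- pools, against 1548, 1544, 1516, 1346 and 1317 in WT pools. kif20ba on chromosome 17 had 1246, 1176, 1166, 1195 and 1271 in can4-/- pools, against 1644, 1627, 1705, 1517 and 1564 in WT pools. Neither copy overlapped between genotypes. The log2 fold changes were -0.83 (SE 0.067) for kif20bb and -0.41 (SE 0.044) for kif20ba, and the difference between the copies was not tested. The annotated span of kif20ba shares 1299 bases of the same strand with ankrd1a, whose own log2 fold change was -0.52, so the split of reads between these genes is uncertain.

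6 further kinesins of cell division, which the comparison did not name, were also lower, with a median log2 fold change of -0.63 and a range of -1.08 to -0.43. kifc1 encodes a minus-end motor that in human cells draws spindle poles together, opposite in sense to kif11. It had 1079.9, 1232, 991, 1049.5 and 1094 normalized counts in can4-/- pools, against 2442, 2169, 2446, 2256 and 2178 in WT pools. The can4-/- mean was 47.4% of WT (log2 fold change -1.08, SE 0.06, adjusted p = 1.88e-09). kif14, a midzone motor of human cells, had 504, 559.9, 481, 473 and 501 in can4-/- pools, against 957, 891, 897, 837 and 834 in WT pools (log2 fold change -0.81, SE 0.059). kif15, known in human cells as a spindle motor that can take over from kif11, had a log2 fold change of -0.67. The chromosome-bound motors kif22 and kif4 had log2 fold changes of -0.59 and -0.55, and the microtubule-shortening kif2c had -0.43. Together with the mitotic members, 12 of 12 division kinesins were lower and none overlapped between genotypes. Among all genes, 36.9% were lower and 60.8% had no overlap. The edgeR adjusted p of the 12 division kinesins was 1.08e-05 at the most.

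**Figure D2:**
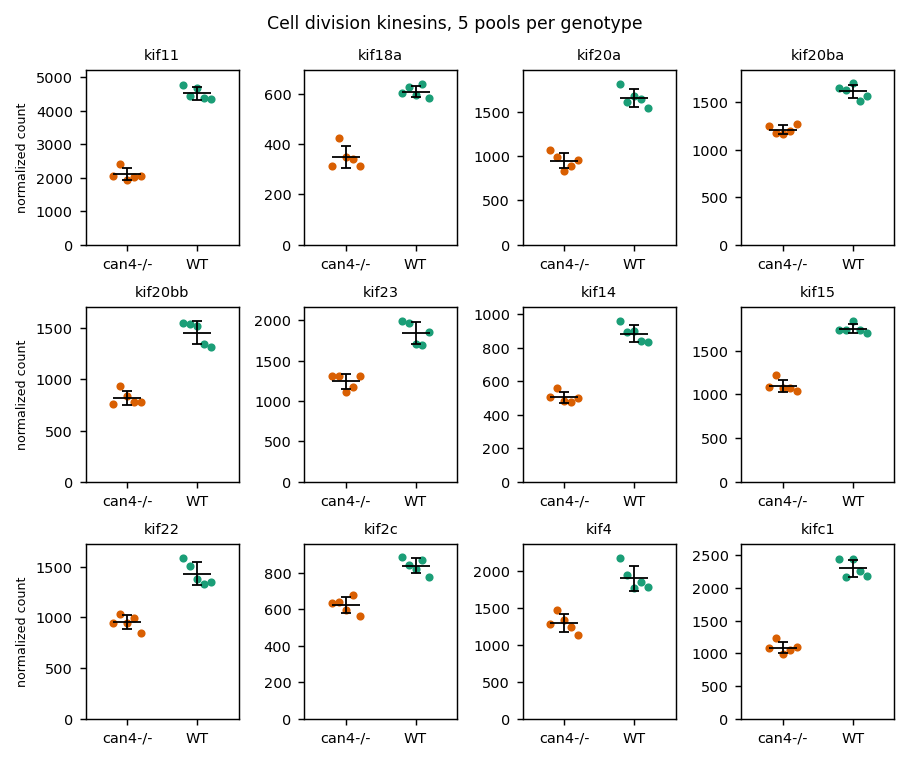
Normalized counts (vertical axes, from 0) of the 12 cell division kinesins in each of 5 can4-/- pools (orange, left) and 5 WT pools (green, right), with lines for the mean and bars for the SD. In every panel all can4-/- pools lie below all WT pools, and in 8 panels the highest can4-/- pool is replicate 2.

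can4-/- replicate 2 was the highest mutant pool for 8 of the 12 division kinesins, for 14 of the 18 cycling cell markers that were lower and for 37.6% of all genes called lower. Whether its higher top2a has a part in this was not tested. Without it and WT replicate 1, all 6 mitotic and all 6 other division members were still called lower, with medians of -0.82 and -0.64.

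Genes whose products work with these motors were mostly lower too. Of 20 spindle partners listed, 17 had a row and 16 were tested. Beside 36.9% of all genes lower, 15 were lower and none was higher, with a median log2 fold change of -0.70. The largest decreases were those of nusap1 (-1.26), hmmr (-0.95) and tacc3 (-0.94), which all encode proteins of the mitotic spindle. ect2, which activates RhoA at the cleavage site, averaged 556 ± 43 normalized counts in can4-/- and 608 ± 10.3 in WT (SD, n = 5 each) and did not pass the test (adjusted p = 0.055). With library totals ect2 passed at -0.30, so that all 16 were lower, where 47.7% of all genes were lower. All 16 were also lower without can4-/- replicate 2 or without can4-/- replicate 4. Leaving out can4-/- replicate 2 together with WT replicate 1 gave 14 of the 16 lower. Of 19 cycling cell markers, 18 were lower and 1 did not pass, which is 1 of the 2 genes named rrm2 (ENSDARG00000020711, log2 fold change -0.10). The other rrm2 gene (ENSDARG00000078069) had the largest decrease of the list, to 50.1% of the WT mean in can4-/-, but its pools overlapped between genotypes. In can4-/- replicate 5 this gene had its highest mutant count (2230) and ENSDARG00000020711 its lowest (876). The split of reads between the rrm2 genes is thus uncertain, and so are their separate fold changes. The summed normalized count of the 19 markers was 37136 to 44723 in can4-/- pools, against 56539.7 to 61632 in WT pools, or 67.6% of WT. The proliferation antigen gene mki67 had a log2 fold change of -0.87 and the replication clamp gene pcna had -0.45. What part the number of dividing cells has in the division kinesins was not tested.

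The transport kinesins were lower as a group but not to the last member. Of 13, 10 were lower, 2 (kif1c and the kif5ba gene on chromosome 2) were higher and kif3b did not pass the test. The median log2 fold change was -0.77, with a range of -1.01 to 0.58. Beside 60.8% of all genes without overlap and 36.9% lower, the pools did not overlap in 12 of the 13 transport members. Their summed normalized count was 26092 to 27203 in can4-/- pools, against 35617 to 36949.9 in WT pools, or 73.3% of WT, and genes with many reads weigh most in such a sum.

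The kif1 genes encode monomeric or dimeric motors of the kinesin-3 family. kif1aa, on chromosome 6 (ENSDARG00000061817, 27146671 to 27273027), is 1 of the copies of KIF1A, which in mouse carries synaptic vesicle precursors down the axon. It had 2976, 3171, 3168, 3068 and 3023 normalized counts in can4-/- pools, against 5483, 6165, 5708, 5796 and 6049 in WT pools. The can4-/- pools were close to each other and all far below WT (52.8% of WT, log2 fold change -0.92, SE 0.042, adjusted p = 3.21e-10). The other copy, kif1ab on chromosome 2, had 1974, 2035, 2156, 2056 and 1890.1 in can4-/- pools, against 3486, 3577, 3277, 3521 and 3344 in WT pools. It was also lower in every can4-/- pool (log2 fold change -0.77, SE 0.043, adjusted p = 2.22e-09).

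kif1b, on chromosome 23, stands for a motor of mitochondria and synaptic vesicle precursors that most mouse tissues express. Its normalized counts were 3718, 3797, 4169.9, 3630.0 and 3546 in can4-/- pools, against 4665, 4624, 4263, 4211 and 4521 in WT pools. The gap between the highest can4-/- pool and the lowest WT pool was 0.929% of the WT mean, so the genotypes only just did not overlap (log2 fold change -0.24, SE 0.05, adjusted p = 0.000651). kif1c, a broadly expressed motor that carries dense-core vesicles and integrins in mammalian cells, went the other way. It had 224, 234, 246, 259 and 265 normalized counts in can4-/- pools, against 181, 163, 173, 149.7 and 152 in WT pools. Every can4-/- pool was above every WT pool (150.2% of WT, log2 fold change 0.58, SE 0.083, adjusted p = 2.24e-05). The annotated span of kif1c lies wholly within camta2 on the opposite strand, and camta2 averaged 43.3 normalized counts in can4-/- and 40.9 in WT. A second gene, annotated as KIF1C in capitals on chromosome 5 and so outside the naming pattern, was also higher, with a log2 fold change of 0.73. The other kinesin gene left out for its capitals, KIF2A on chromosome 8, was lower, with a log2 fold change of -0.18 (88.5% of WT).

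The kif5 genes encode heavy chains of conventional kinesin (kinesin-1), the motor of fast axonal transport. kif5aa, on chromosome 9, is a copy of KIF5A, which in mouse is found mainly in nerve cells. It had 2676, 2909, 3137, 2859 and 2753 normalized counts in can4-/- pools, against 4666, 4830.1, 5018, 4767 and 5162 in WT pools. All can4-/- pools were lower than all WT pools (log2 fold change -0.77, SE 0.048, adjusted p = 5.88e-09). Its span shares 594 bases of the same strand with an unnamed gene that had a log2 fold change of -0.47. Its other copy, kif5ab, had 146, 192, 196, 189 and 192 in can4-/- pools, against 322, 341, 359.9, 349.7 and 318 in WT pools (log2 fold change -0.88, SE 0.084, adjusted p = 3.72e-07). kif5c, whose mouse counterpart is likewise neuronal, had 494, 513, 605, 567 and 611 in can4-/- pools, against 1037, 1133, 1124, 1056 and 1105 in WT pools. The can4-/- mean of kif5c was 51.1% of WT (log2 fold change -0.97, SE 0.063, adjusted p = 7.73e-09).

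KIF5B, the form that mouse tissues use broadly, has a pair of zebrafish genes that share the name kif5ba in the annotation, and these parted. The gene on chromosome 12 (ENSDARG00000103394, 41510492 to 41551599) had 2334, 2436, 2362, 2259.9 and 2444 normalized counts in can4-/- pools, against 3458, 3654, 3529, 3553 and 3458 in WT pools. The gene on chromosome 2 (ENSDARG00000074131, 43705593 to 43739740) had 6997, 6439, 6202, 6417 and 6808 in can4-/- pools, against 5506, 5497, 5749, 5750.4 and 5658 in WT pools. The pools of the genotypes did not overlap for either gene, and the directions were opposite. The log2 fold changes were -0.58 (SE 0.037, adjusted p = 6.33e-09) on chromosome 12 and 0.22 (SE 0.042, adjusted p = 0.00028) on chromosome 2. With library totals the gene on chromosome 2 no longer passed (log2 fold change 0.05). The RefSeq table for the assembly GRCz12tu names kif5ba on chromosome 2 and kif5bb on chromosome 12.

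The kif3 genes encode kinesin-2, in which kif3a pairs with kif3b to build cilia and carry cargo, or with kif3c in nerve cells. kif3ca had 497, 677, 630.1, 599 and 529 normalized counts in can4-/- pools, against 1199.5, 1216, 1194, 1164 and 1159 in WT pools. With 49.5% of the WT mean it was the largest decrease among the 13 transport members (log2 fold change -1.01, SE 0.071, adjusted p = 1.81e-08). Its other copy, kif3cb, had 426, 558, 539.8, 485 and 477 in can4-/- pools, against 981, 1014, 934, 1002 and 948 in WT pools (log2 fold change -0.97, SE 0.066). kif3a had 1959, 2173, 2148, 2214 and 2064 in can4-/- pools, against 2843, 2953, 2930.5, 3017 and 2862 in WT pools, and no pool crossed over (log2 fold change -0.47, SE 0.041, adjusted p = 1.57e-07). kif3b was the 1 transport member whose pools overlapped. It had 1672, 1772, 1643, 1682 and 1646 normalized counts in can4-/- pools, against 1790.5, 1785, 1710.1, 1839 and 1721 in WT pools (log2 fold change -0.07, SE 0.038, adjusted p = 0.109). kif3b passed with library totals, at -0.25, and without can4-/- replicate 2, at -0.09 with an adjusted p of 0.047.

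**Figure D3:**
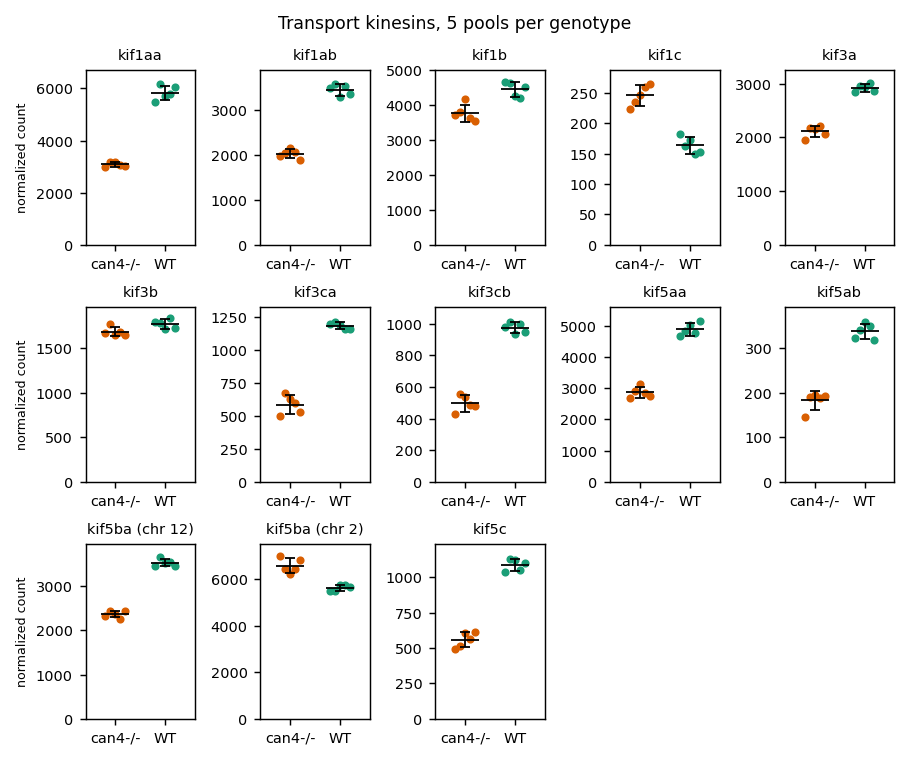
Normalized counts (vertical axes, from 0) of the 13 transport kinesins in each of 5 can4-/- pools (orange, left) and 5 WT pools (green, right), with lines for the mean and bars for the SD. The can4-/- pools lie below WT in 10 panels and above it for kif1c and the kif5ba gene on chromosome 2, and overlap WT for kif3b.

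The transport members were then parted by what is known of their mouse or human counterparts, a split made with the values known and given without a test. The 7 members whose counterparts work mainly in nerve cells (kif1aa, kif1ab, kif5aa, kif5ab, kif5c, kif3ca and kif3cb) were all lower. Their can4-/- means lay between 49.5% and 58.8% of WT, with a median log2 fold change of -0.92. The 6 members with broadly used counterparts (kif1b, kif1c, kif3a, kif3b and both kif5ba genes) spread from 67.1% to 150.2% of WT. Of those, 3 were lower, 2 were higher and 1 did not pass, with a median log2 fold change of -0.16. Every nerve cell member fell by more than any broadly used member. Because the split was made with the values known, this separation cannot count as support for it.

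Neuron markers were mostly lower as well. Of 17, nefmb was higher (0.38), nefma did not pass and 15 were lower, beside 36.9% of all genes. The median log2 fold change of the 17 was -1.05. Their summed normalized count was 49919 to 56988 in can4-/- pools, against 104904 to 110604 in WT pools, or 51% of WT. elavl3, an RNA-binding protein gene of young nerve cells, had a log2 fold change of -1.17, and snap25b, of the synaptic vesicle fusion machinery, had -1.66. All 11 photoreceptor markers were lower, with a sum of 1.14% of WT. Of 7 glia markers, 6 were lower and slc1a3b was higher (1.72), with a sum of 68.1% of WT. Beside 36.3% of all genes higher, the 7 muscle markers were all higher, with a sum of 153% of WT. Of 5 skin markers, 4 were higher and krt5 was lower (-0.39), with a sum of 150.3% of WT, and 10 of the 11 p53 targets were higher. Among 6 blood markers, 1 was higher and 5 did not pass, with a sum of 104.1% of WT. The 5 macrophage and neutrophil markers had 3 higher and 1 lower, with a sum of 109.7% of WT. The 5 liver and gut markers had 2 higher and 2 lower, with a sum of 122.7% of WT. What part the share of nerve cells in a larva has in the transport kinesins was not tested. can4-/- replicate 1 was the lowest mutant pool for 8 of the 13 transport members and for 10 of the 17 neuron markers. No such share over all genes was computed, so these counts have no baseline and nothing is read from them.

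The partners of the transport motors were less uniform. Of 27 listed, 22 had a row and all were tested. They include kif1bp, which was lower and is also counted among the kinesin members. Beside 36.9% of all genes lower and 36.3% higher, 14 were lower and 3 were higher. A further 5 (trak1a, rhot1a, rhot2, pafah1b1b and nde1) did not pass, and the median log2 fold change was -0.23. The largest decreases were those of the kinesin light chain gene klc3 (-1.22), the cargo adaptor gene mapk8ip3 (-0.93) and dctn1b, a dynactin subunit (-0.92). ndel1b, which encodes a regulator of dynein, was higher by 0.53. dctn1a and dync1h1, the heavy chain of cytoplasmic dynein, were higher by 0.16 and 0.15, which library totals turned to -0.01 and -0.02. The kinesin-2 accessory genes kifap3a and kifap3b had log2 fold changes of -0.39 and -0.47, beside -0.47 for kif3a and -0.07 for kif3b. These accessory genes were picked after their values were seen. With library totals 19 partners were lower and 1 higher, where 47.7% of all genes were lower and 25.7% higher.

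**Figure D4:**
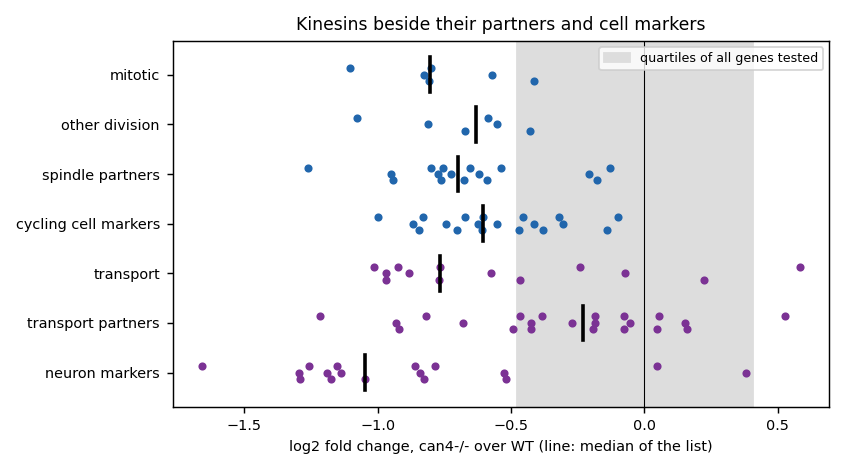
Log2 fold changes (can4-/- over WT, horizontal axis) of the tested genes in 7 lists, 1 point per gene, with a black line at each list's median and grey between the lower and upper quartiles (-0.48 and 0.41) of all genes tested. Division kinesins and their partners in blue lie to the left of 0, and transport kinesins in purple spread across it.

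Set side by side, the mitotic and the transport kinesins had nearly the same median, -0.80 and -0.77, and differed in spread. The transport median stands for members that lay apart, with medians of -0.92 for the nerve cell and -0.16 for the broadly used members. By summed normalized count the mitotic members were at 57.1% of WT and the transport members at 73.3%. The difference of the mitotic and transport medians was -0.04, and it lay between -0.08 and 0.01 over 18 alternative settings. No test of this difference was made, and its sign changed without can4-/- replicate 3. All 6 mitotic members were lower, against 10 of 13 transport members, where 36.9% of all genes were lower. The largest mitotic decrease (kif11) and the largest transport decrease (kif3ca) were 0.09 apart on the log2 scale. Within transport, the kif1 genes had a median of -0.50, the kif3 genes -0.72 and the kif5 genes -0.77, with 3 of 4, 3 of 4 and 4 of 5 lower. Whether gene length has a part in the fold changes was not tested. Across the 45 kinesin genes the annotated span and the log2 fold change had a Spearman's rho of 0.12, given as a description across genes that are not independent replicates. The median span was 32.9 kb for mitotic and 34.1 kb for transport members.

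The kinesins of cilia and of Hedgehog signalling did not fall together. kif6, which zebrafish need for the cilia of ependymal cells and a straight spine, had 182, 166, 209, 211 and 238 normalized counts in can4-/- pools, against 53.2, 41.8, 37 and 50.2 in WT replicates 1 to 4 and 36 in WT replicate 5. All can4-/- pools lay far above all WT pools. Its can4-/- mean was 461% of WT, the largest increase among the 45 (log2 fold change 2.20, SE 0.14, adjusted p = 7.14e-09). kif17, a kinesin-2 motor of cilia and dendrites, had 82.5, 49.1, 47.3, 55.7 and 46.2 in can4-/- pools, against 27, 17.5, 28.3, 27.7 and 22.5 in WT pools. The pools did not overlap, though can4-/- replicate 1 stood above the other mutants (log2 fold change 1.17, SE 0.2, adjusted p = 0.000144).

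kif9, a motor of sperm flagella and motile cilia in mouse, was higher too. It had 77.5, 83.8, 93.5, 74 and 91.2 in can4-/- pools, against 50.6, 58.4, 53.7, 54.3 and 70.8 in WT pools (log2 fold change 0.55, SE 0.13, adjusted p = 0.00151). Its span shares 697 bases with scrib on the opposite strand, and scrib had about as many counts in both genotypes, with 3991 in can4-/- and 4094 in WT. kif19, which in mouse limits the length of motile cilia, was lower. Its normalized counts were 180.0, 173, 259, 229 and 174 in can4-/- pools, against 397, 364, 349, 366 and 364 in WT pools (log2 fold change -0.85, SE 0.11, adjusted p = 6.62e-06). kif7, the regulator of Hedgehog signalling at the tip of the primary cilium, overlapped between genotypes and did not pass (919 ± 56.6 normalized counts in can4-/- and 841 ± 72.6 in WT, SD, n = 5 each; log2 fold change 0.13, adjusted p = 0.0847). With library totals its log2 fold change turned to -0.05. The names kif24 and kif27 have no row in the count table.

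Of the 15 remaining members, 12 were lower and 3 were higher, beside 36.9% and 36.3% of all genes. Their median log2 fold change was -0.27. kif25, whose human counterpart keeps centrosomes from parting too early, had the largest decrease of all 45. It had 28.7, 22.2, 26.9, 19.3 and 15.4 normalized counts in can4-/- pools, against 123, 123, 140.0, 125 and 142 in WT pools. All can4-/- pools lay far below all WT pools (17.2% of WT, log2 fold change -2.53, SE 0.15, adjusted p = 3.73e-09). kif26bb, 1 of the copies of the atypical kinesin KIF26B, had 182, 176, 196, 165 and 178 in can4-/- pools, against 303, 307, 304, 263 and 365 in WT pools (log2 fold change -0.78, SE 0.09).

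kif13bb, a copy of the vesicle motor KIF13B, was higher in every can4-/- pool. It had 1577, 1298, 1251, 1353 and 1426 normalized counts in can4-/- pools, against 886, 820.4, 891, 882 and 956 in WT pools (log2 fold change 0.64, SE 0.063, adjusted p = 5.54e-07). kif28 had 10 to 27 raw counts per pool, the genotypes overlapped, and its log2 fold change of 0.68 (SE 0.23, adjusted p = 0.0171) no longer passed with library totals or without can4-/- replicate 2. kif21a and kif21b, which limit microtubule growth in nerve cells of mouse, had log2 fold changes of -0.58 and -0.65. kif1bp, whose product binds kif1 motors and is needed for axons in zebrafish, averaged 1090.4 ± 107 normalized counts in can4-/- and 1317 ± 29.1 in WT (SD, n = 5 each; log2 fold change -0.27, edgeR adjusted p = 0.00111).

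Zebrafish copies of 1 kinesin mostly went the same way. Of 9 pairs, 8 had the same direction in both copies and only the kif5ba genes parted, 0.80 apart on the log2 scale. With 35 of the 45 members lower, many pairs of kinesins share a direction whether or not they are copies. No share over other pairs was computed, so nothing about copies is read from this count. With library totals kif13ba (0.16) turned to -0.02, so that pair then differed in sign as well. Within pairs of 1 direction the sizes could still differ. kif16bb had -0.68 beside -0.14 for kif16ba, and kif26bb had -0.78 beside -0.21 for kif26ba. The kif3c copies were the closest, with -1.01 and -0.97. Differences between copies were not tested. kif16ba, a motor of early endosomes in human cells, was the weakest of the called members, with an adjusted p of 0.0389 from edgeR and 0.053 from DESeq2.

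**Figure D5:**
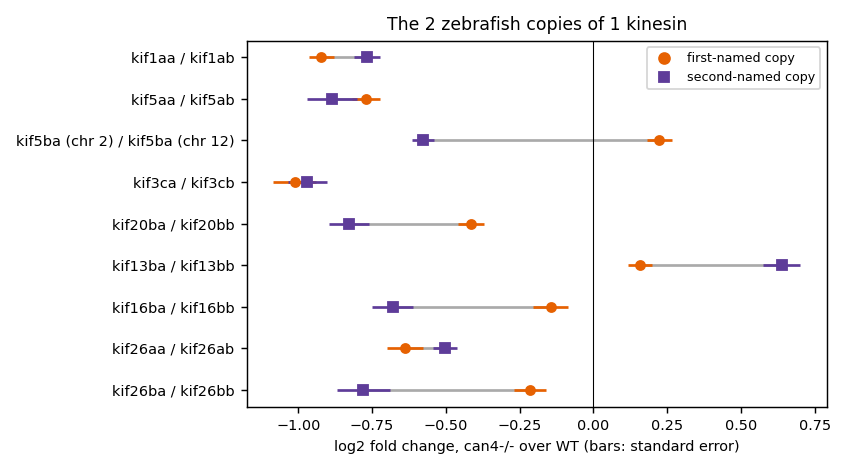
Log2 fold change (can4-/- over WT, horizontal axis) of both copies in 9 pairs of zebrafish kinesin genes, with bars for the standard error and a grey line joining the copies. Only the kif5ba pair lies on both sides of 0.

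Similar copies can share reads, and so can overlapping genes, since neither the counting program nor its strand setting could be learned from the sources. The spans of 15 of the 45 members overlap another annotated gene, in 5 of them on the same strand, and 30 overlap none.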

How the data were processed

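RNA was sequenced from whole larvae, with a stranded kit that removes rRNA. The authors aligned reads with STAR (version 2.7.0f in the submitters' processing notes, build GRCz11) and deposited raw counts per gene of Ensembl release 96, whole numbers with no normalization. The sources used here do not name the counting program. The deposited fold changes and p-values of the authors' own comparison, and their normalized values, were not used.

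Genes passed edgeR's filterByExpr (minimum count 10, minimum total 15). edgeR 4.0.16 in R 4.3.3 gave TMM factors and quasi-likelihood tests with genotype as the only term, adjusted by Benjamini and Hochberg over 23039 genes. The standard error is the log2 fold change divided by the square root of F. On simulated counts the test recovered 89.6% of 67 genes changed 1.5-fold and 100% of 67 changed 2-fold, and called 11 of 22755 genes that had not been changed. The changed genes were few, had many counts and went in random directions. In the real data 73.2% of genes were called, so the simulation does not check normalization or false calls there. Nor does it cover members with few counts, such as kif28. Pools of 1 genotype differed beyond sampling noise (chi-square per degree of freedom 4.79 to 27.2 over 20 pairs), and each counted as 1 replicate.

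Members and lists were chosen with earlier results of these data known. Named are all mitotic and transport members, of the other members and partners those with the largest changes in each direction, top2a, 4 markers (mki67, pcna, elavl3 and snap25b) and, picked after their values were seen, the other genes named here. Alternatives were RLE factors, library totals, DESeq2 1.42.0, limma voom (3.58.1), no filter, at least 50 counts in every pool of a genotype, a replicate block and leaving out pools. Promoter and protein sequences were not analysed here.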

Additional observations from a re-analysis of the deposited data

Results flagged for a closer look

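In 92 groups of 5 pools (each genotype of the 45 members and of top2a), 7 had a pool set far apart from the other 4, where chance gives about 1 in 20. can4-/- replicate 2 was the highest of its genotype for top2a (1358 normalized counts, the others 635 to 688), kif11 (2417, the others 1939 to 2064) and kif15 (1216, the others 1041 to 1080). can4-/- replicate 1 was the highest for kif17 (82.5, the others 46.2 to 55.7) and the lowest for kif5ab (146, the others 189 to 196). WT replicate 3 was the highest for kif15 (1843, the others 1703 to 1739), and WT replicate 1 for top2a (9082, the others 8498 to 8646). Without can4-/- replicate 2, kif11 had a log2 fold change of -1.16 and kif15 one of -0.71. Without can4-/- replicate 1, kif17 had a log2 fold change of 0.9998.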

How the results depend on the processing

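The number of kinesin members called was 41 to 44 over all alternatives, and 41 when can4-/- replicate 2 and WT replicate 1 were left out together, a setting chosen after seeing the data. The counts for the mitotic, other division and transport members stayed within 1.5 times in each alternative, and leaving out single pools gave 42 to 44 called members. Library totals turned kif7 to -0.047 and kif13ba to -0.018 on the log2 scale, ended the calls of kif28 and of kif5ba on chromosome 2, and called kif3b lower. kif16ba lost its call with DESeq2, with the replicate block and without any 1 of 6 pools. kif28 lost its call without can4-/- replicate 2, where kif3b gained one. kif7 passed with the block and without can4-/- replicate 5 or WT replicate 4. The cause of these changes was not tested. The replicate numbers did not pair the pools: same-numbered pools deviated with correlations of -0.02 to 0.03, and none matched its own number best. With the replicate block 43 members were called, 34 lower and 9 higher. Depth limits kif28, with at most 27 counts in a pool, and kif17, with 18 to 66. With at least 50 counts in every pool of a genotype, 43 members were tested, and kif17 was not among them.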
